A study of Mus musculus with 16 samples.

Results

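The genomic neighbourhoods of 3 nuclear receptor genes, Nr1i3, Rxra and Ppara, were examined for H3K27Ac peaks in mouse liver. Each gene was represented by 1 window on the NCBI37/mm9 genome, namely chr1:173130000-173165000 for Nr1i3 (35 kb), chr2:27515000-27635000 for Rxra (120 kb) and chr15:85545000-85650000 for Ppara (105 kb). Every peak of the 15 animals that overlapped a window by at least 1 bp was kept, which gave 197 of the 500869 peaks on chromosomes 1 to 19 and X. The Nr1i3 window held 43 of them, the Rxra window 69 and the Ppara window 85. After merging of peaks that overlapped or touched, across animals, the 3 windows held 9 of the 56941 regions of the whole series. The windows were set by position, not by the measured values.

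The animals, described by the sample labels, were 5 wild type (WT) mice labelled FVB.129P2, 14 to 19 months old, 5 Mdr2 knockout mice (FVB.129P2-Abcb4tm1Bor/J) of 7 to 8 months with inflamed livers, and 5 Mdr2 knockout mice of 14 to 19 months from which HCC (hepatocellular carcinoma) nodules were taken. Mdr2, also called Abcb4, is the hepatocyte transporter that moves phospholipid into bile, and the knockout removes it from the whole animal. Mice of all 3 groups, the WT controls included, had received clodronate liposomes at 50 μg per g 48 h before sampling, a treatment that depletes macrophages. The study's methods name FVB/NJ as the WT strain, call WT mice age matched and give other ages and another clodronate amount than the labels, and which is right was not settled here. By the labels, inflamed livers and WT livers differed in age as well as in genotype, so that age and disease cannot be told apart in that comparison, nor in that of nodules with inflamed livers, and the sex of each animal was not given. Hepatocytes make up most of liver tissue, but in bulk tissue fewer cells of a type and less acetylation per cell cannot be told apart. Cell type markers could not be placed on these peaks without an annotation of the same build.

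Nuclear receptors are transcription factors whose activity is set by small lipophilic ligands. Nr1i3 encodes the constitutive androstane receptor (CAR), a liver sensor of xenobiotics and bile acid breakdown products that drives cytochrome P450, conjugation and export genes. Ppara encodes the fatty acid sensor PPARα, which controls fatty acid oxidation and the Cyp4a genes in hepatocytes. Rxra encodes RXRα, the dimer partner with which both CAR and PPARα bind paired hexamer sites on DNA. H3K27Ac is the acetylation of lysine 27 of histone H3, a mark of active promoters and enhancers, and a peak is a stretch of genome in which the immunoprecipitated reads exceeded their background. A difference between peak lists is a difference in called enrichment and is no measurement of a transcript.

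The sequences before the annotated start sites of the 3 genes are given because they are the DNA on which a mark at a promoter would lie and on which hexamer sites of these receptors can be searched. They are the 250 bases upstream of each start in RefSeq for build GRCm38.p6, which is not the build of the peaks, so no peak was placed on them. All 3 genes matched a RefSeq entry, and Rxra had starts at 2 positions. Capitals mark the nuclear receptor hexamer AGGTCA on either strand.
Nr1i3, chr1:171213720-171213969, + strand: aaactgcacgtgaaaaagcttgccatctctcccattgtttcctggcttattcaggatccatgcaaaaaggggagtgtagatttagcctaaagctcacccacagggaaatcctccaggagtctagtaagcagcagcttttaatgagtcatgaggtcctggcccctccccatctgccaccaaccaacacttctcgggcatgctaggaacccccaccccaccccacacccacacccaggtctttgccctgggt
Rxra, first start, chr2:27676951-27677200, + strand: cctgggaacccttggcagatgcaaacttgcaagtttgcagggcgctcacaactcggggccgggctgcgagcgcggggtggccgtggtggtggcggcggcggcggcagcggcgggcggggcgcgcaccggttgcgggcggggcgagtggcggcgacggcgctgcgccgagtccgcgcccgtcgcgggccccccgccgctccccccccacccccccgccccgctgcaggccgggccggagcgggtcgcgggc
Rxra, second start, chr2:27709042-27709291, + strand: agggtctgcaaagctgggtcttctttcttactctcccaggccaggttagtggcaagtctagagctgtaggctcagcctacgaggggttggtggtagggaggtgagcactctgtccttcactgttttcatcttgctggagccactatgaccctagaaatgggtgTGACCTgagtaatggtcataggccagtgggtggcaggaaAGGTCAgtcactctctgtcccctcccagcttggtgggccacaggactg
Ppara, chr15:85735526-85735775, + strand: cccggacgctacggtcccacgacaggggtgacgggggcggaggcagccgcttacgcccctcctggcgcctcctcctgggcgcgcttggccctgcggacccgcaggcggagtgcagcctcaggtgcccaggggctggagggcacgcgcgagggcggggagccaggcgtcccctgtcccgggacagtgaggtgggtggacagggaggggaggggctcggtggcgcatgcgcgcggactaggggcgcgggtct

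The hexamer was present in 1 of these 4 stretches, the one before the second Rxra start, where it occurred on the + strand 48 bases before the start and on the opposite strand 87 bases before it. Among 32851 promoter stretches of the same length in the table, 14.0% held it on at least 1 strand. Direct repeats of the hexamer with a spacer of 1 base (AGGTCANAGGTCA, where N is any base) to 5 bases were in none of the 4, and their shares among all stretches were 0.0335% for a spacer of 1, 0.00913% for 2, 0.00609% for 3, 0.0152% for 4 and 0.00913% for 5. Only exact copies of AGGTCA were searched, so sites that differ from it by a base were not counted. With repeat shares this low, absence from 4 stretches does not show that receptor sites are lacking there. The stretches differed in base composition. The first Rxra start had a GC content of 81.2% with 40 CpG dinucleotides and the Ppara start 76.4% with 27, against medians of 52.4% and 6 over all stretches. The Nr1i3 start had 53.2% and 2, and the second Rxra start 55.2% and 1.

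Peak lists differed in length before any locus was considered. On chromosomes 1 to 19 and X, WT lists held 26375 to 30268 peaks, inflamed lists 35901 to 40909 and HCC lists 26683 to 42736, and the genome under peaks was 128 ± 15.6, 147 ± 9.40 and 144 ± 32.8 Mb (SD, n = 5 each). Single peaks reached further in WT than in inflamed livers: the longest of each list was 113709 to 121931 bp in WT, 57959 to 89429 bp in inflamed livers and 82735 to 143840 bp in nodules. The lists carry no read counts, so library depth is unknown, and comparisons between animals used the length of a window under peaks and an exact two-sided permutation test of the difference of means. The smallest p that 5 animals against 5 allow is 0.00794. WT animal 130748 stood apart from its group: it had the most peaks in the Nr1i3 window (4, against 1 to 3) and in the Ppara window (9, against 3 to 5), and results that rest on WT 130748 are given with and without it. The study left some of these libraries out of its own analysis as outliers. Which ones is not given in the sources used here, and all 15 were used.

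Of the 3 windows, those of Nr1i3 and Ppara had less length under peaks in inflamed livers than in WT livers and nodules, while the Rxra window did not. None of these differences was significant after adjustment over the genome. The plot of covered length per animal shows all 15 values for each window.

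**Figure D1:**
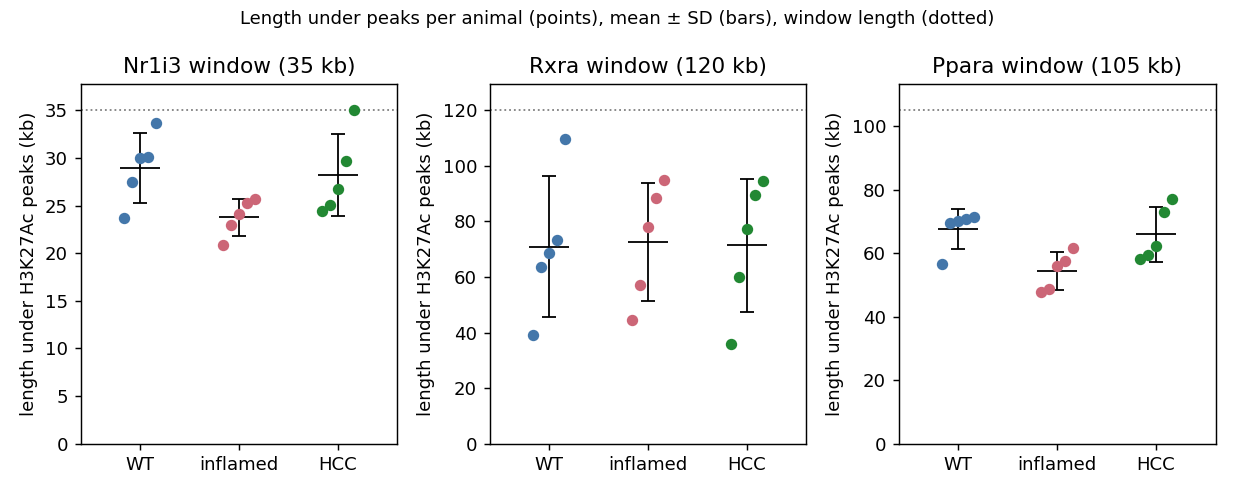
Length under H3K27Ac peaks (kb) in the Nr1i3, Rxra and Ppara windows, with 1 point per animal, the group mean and its SD as bars, and the length of the window as a dotted line. The inflamed points lie low in the Nr1i3 and Ppara panels, from 20909 to 25689 bp and from 47914 to 61742 bp. The ranges of the 3 groups overlap in every panel, and in the Rxra panel WT 130748 lies highest at 109582 bp.

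In the Nr1i3 window, peaks covered 29972, 33634, 30073, 27461 and 23663 bp in WT animals 134501, 129296, 130747, 129297 and 130748. In inflamed animals 148997, 148998, 149198, 149199 and 148990 they covered 25689, 24085, 22964, 20909 and 25216 bp. In HCC animals 124711, 125278, 125279, 123206 and 123390 they covered 25072, 29696, 24460, 26745 and 35001 bp, the last being the whole window. Thus 4 WT animals lay above every inflamed animal, and WT 130748 lay among the inflamed ones. The means were 28961 ± 3688 bp in WT, 23773 ± 1918 bp in inflamed livers and 28195 ± 4312 bp in nodules (SD, n = 5 each), or 82.7%, 67.9% and 80.6% of the window.

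The inflamed mean was 0.821 times the WT mean, a difference of -5188 bp (exact permutation test, p = 0.0317, Benjamini-Hochberg adjusted p = 0.114 over 27931 tiles of the same length with a peak). Without WT 130748 the difference was -6512 bp, the groups did not overlap and the exact permutation test gave p = 0.00794. Without WT 129296 it was -4020 bp (exact permutation test, p = 0.0635), and without inflamed 149198 or 149199 the exact permutation p was 0.0556. With the top 50% of each list it was -4560 bp (exact permutation test, p = 0.103), and with equal lists of the best-scoring 26375 peaks -4854 bp (exact permutation test, p = 0.0556). Nodules exceeded inflamed livers by 4422 bp (exact permutation test, p = 0.0556, adjusted p = 0.333; 2721 bp and p = 0.103 without HCC 123390) and differed from WT livers by -765.8 bp (exact permutation test, p = 0.770, adjusted p = 1). With all animals, the groups overlapped in the Nr1i3 window in all 3 comparisons. Across tiles of this length, groups did not overlap in 19.7% between inflamed and WT livers, in 6.14% between nodules and inflamed livers and in 2.47% between nodules and WT livers.

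At Nr1i3 every inflamed liver and no WT liver had a break at the same place inside a long peak. This place was found by a search for stretches that separate these groups. The break made up part of the mean difference of -5188 bp. In every WT liver 1 peak ran without interruption across the stretch from 17.9 to 19.4 kb of the window, and these peaks were 16281 to 35469 bp long. In every inflamed liver the same place held a gap between a shorter peak that ended 16.6 to 17.9 kb into the window and another that began 19.4 to 20.3 kb into it. The stretch covered in all 5 WT and no inflamed liver was chr1:173147932-173149350, 1419 bp long. The nodules HCC 124711, 125278 and 123390 covered it whole, HCC 123206 covered 22.4% of it, and HCC 125279 had the gap. In HCC 123390 the covering peak was 47840 bp long, wider than the window, at score percentile 63.3 of its list. It stood at percentile 64.7 in HCC 124711 and 80.4 in HCC 125278, against 82.2 to 91.6 in WT livers. The stretch kept its 1419 bp when only the best-scoring 26375 peaks, or the top 50%, of each list were used. This follows from the percentiles of the WT peaks and adds no separate support. The flanks of the gap carried peaks in all animals, and 18461 bp of the window, 52.7% of all that lay under any peak, were covered in all 15.

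**Figure D2:**
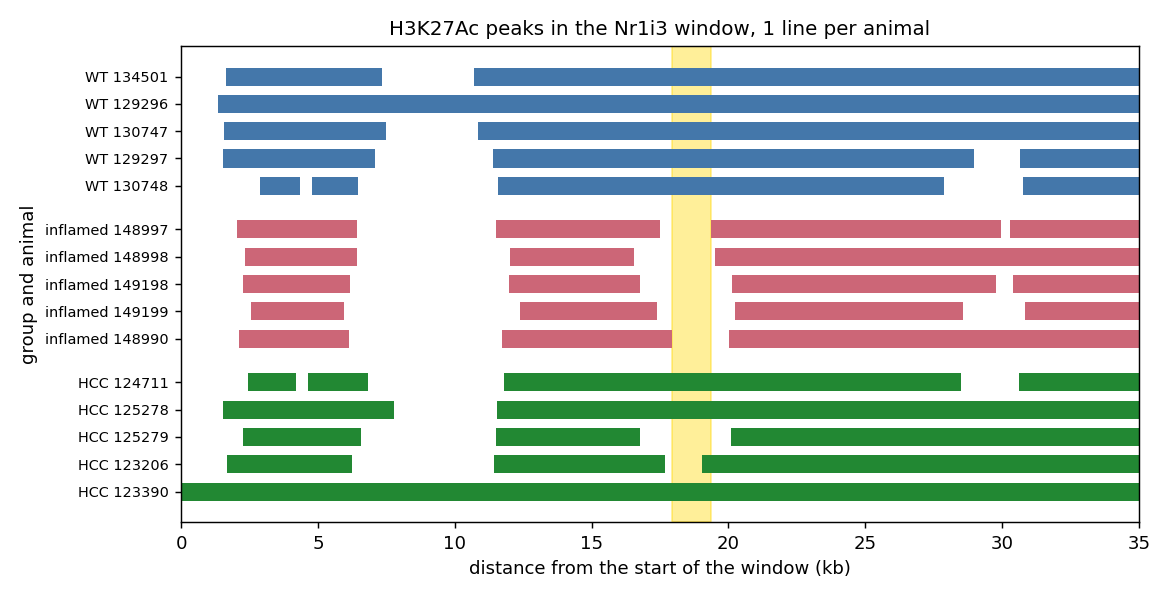
Peaks in the Nr1i3 window, 1 line per animal in blue (WT), red (inflamed) and green (HCC), against the distance from the window's start (kb). The yellow band marks the 1419 bp covered in all 5 WT and no inflamed livers, where 3 nodules are covered whole and 1 in part.

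The Nr1i3 window belonged to 1 merged region, chr1:173122948-173172749, which reached past both ends of the window. Over the whole region inflamed livers covered 26043 ± 1884 bp and WT livers 33017 ± 5886 bp (SD, n = 5 each; difference of -6974 bp, exact permutation test, p = 0.0159, adjusted p = 0.0846 over 44697 regions), and nodules covered 34237 ± 7966 bp (8194 bp above inflamed livers, exact permutation test, p = 0.0159, adjusted p = 0.261 over 54675 regions). In RefSeq's order of genes Nr1i3 is followed by Tomm40l, a mitochondrial import channel gene, Apoa2, an abundant hepatocyte apolipoprotein gene, and Fcer1g, the gene of an Fc receptor chain of myeloid and mast cells. Which of these genes lie in the window could not be read from the peak coordinates, and the peaks were not assigned to 1 gene.

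In the Rxra window the groups had nearly the same mean and a wide spread. Peaks covered 73369, 68622, 63544, 39078 and 109582 bp in WT animals 134501, 129296, 130747, 129297 and 130748. In inflamed animals 148997, 148998, 149198, 149199 and 148990 they covered 57280, 78107, 88303, 94848 and 44451 bp. In HCC animals 124711, 125278, 125279, 123206 and 123390 they covered 94450, 89480, 59966, 77151 and 35718 bp. Within each group, the gap between the lowest and the highest animal was far wider than any gap between group means. The means were 70839 ± 25369 bp in WT, 72598 ± 21207 bp in inflamed livers and 71353 ± 23954 bp in nodules (SD, n = 5 each), and no pair differed beyond this spread (exact permutation tests, p = 0.913 between inflamed and WT livers, 0.929 between nodules and inflamed livers and 0.968 between nodules and WT livers, adjusted p = 1 for each). The groups overlapped in all 3 comparisons, against 22.3%, 7.06% and 2.74% of tiles of this length in which they did not, in the same order.

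This spread came from 1 end of the window. At the other, a block from about 10 to 46 kb into the window was under peaks in all 15 animals. Its strongest peak had a score of 3100 in every animal, at score percentiles of 87.1 to 94.7. This score was shared by 9.52% to 24.5% of the peaks of a list and was not the highest of any list. The block was 1 unbroken peak in WT 134501, 129296 and 129297 and in HCC 124711 and 123390. In all 5 inflamed livers it was called as a pair of peaks, the first ending 35.6 to 37.6 kb into the window. Past 46 kb the animals diverged, from no peak at all in HCC 123390 to a single peak of 64973 bp in WT 130748. Only 32119 bp, 28.7% of the length under any peak, were covered in all 15 animals.

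**Figure D3:**
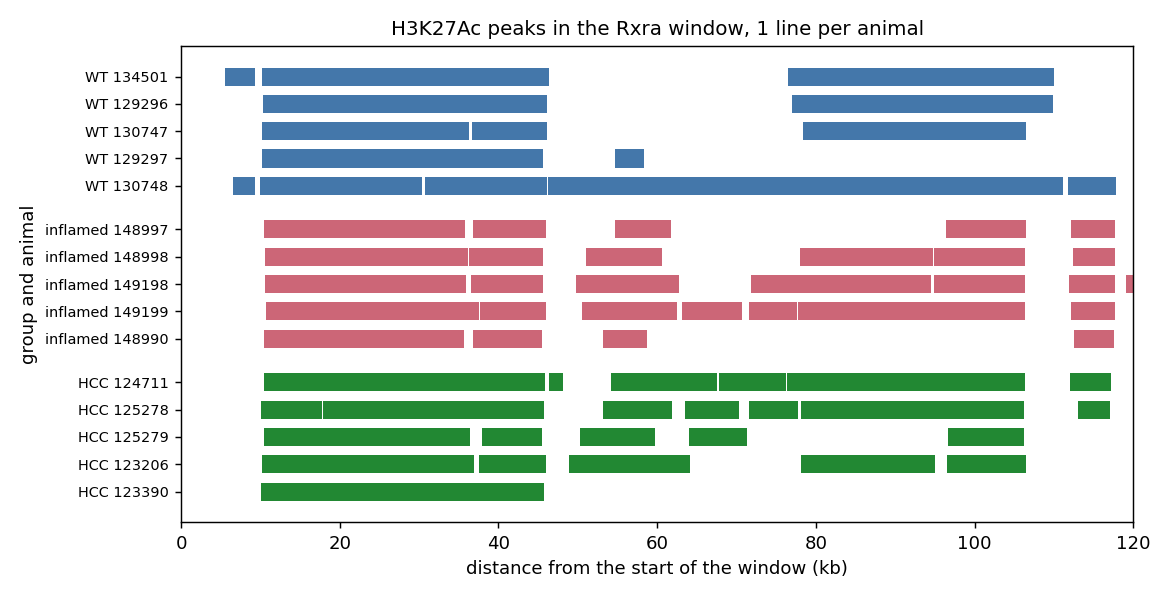
Peaks in the Rxra window, 1 line per animal, against the distance from the window's start (kb), with colours as in the map of the Nr1i3 window. The block from 10 to 46 kb is present in all 15 animals, and a peak near 115 kb is present in all 5 inflamed livers, 1 WT liver and 2 nodules.

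Within the variable end, 2 places were under peaks in all 5 inflamed livers. The first, chr2:27569672-27573702 at 54.7 to 58.7 kb, lay under peaks to at least part of its length in 2 WT livers (129297 and 130748) and in 4 nodules, all but HCC 123390. The second was a separate region, chr2:27626798-27632819, at the far end. There inflamed animals covered 5523, 5338, 5783, 5529 and 4986 bp, WT 130748 covered 6022 bp and the other 4 WT animals had no peak, while HCC 124711 covered 5262 bp, HCC 125278 covered 3981 bp and the other 3 nodules had none. All 5 inflamed livers thus had the peak, while 1 WT liver and 2 nodules did. Inflamed livers exceeded WT livers by 4227 bp (exact permutation test, p = 0.0476, adjusted p = 0.153 over 44697 regions), and nodules differed from inflamed livers by -3583 bp (exact permutation test, p = 0.0159, adjusted p = 0.261 over 54675 regions). Neither passed adjustment. These peaks ranked low to middle in their lists, at score percentiles of 28.1 to 65.4 in inflamed livers. Of the other 2 small regions of the window, 1 had a peak in 2 WT animals only and 1 in a single inflamed animal. The large region, chr2:27524990-27626215, covered 68320 ± 21994 bp in WT, 66983 ± 20828 bp in inflamed livers and 69504 ± 21990 bp in nodules (SD, n = 5 each).

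The Ppara window gave the clearest separation of WT and inflamed livers. Peaks covered 70636, 71463, 70119, 69634 and 56458 bp in WT animals 134501, 129296, 130747, 129297 and 130748. In inflamed animals 148997, 148998, 149198, 149199 and 148990 they covered 57448, 48787, 56010, 47914 and 61742 bp. In HCC animals 124711, 125278, 125279, 123206 and 123390 they covered 58017, 59399, 77079, 62184 and 72954 bp. Thus 4 WT animals lay close together, from 69634 to 71463 bp, and above all inflamed animals, and WT 130748 lay below 2 of the inflamed animals. The means were 67662 ± 6300 bp in WT, 54380 ± 5903 bp in inflamed livers and 65927 ± 8558 bp in nodules (SD, n = 5 each), or 64.4%, 51.8% and 62.8% of the window.

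The inflamed mean was 0.804 times the WT mean, a difference of -13282 bp (exact permutation test, p = 0.0238, adjusted p = 0.0798 over 13520 tiles). Without WT 130748 the difference was -16083 bp and the groups did not overlap (exact permutation test, p = 0.0159), and with the top 50% of each list it was -14419 bp (exact permutation test, p = 0.0952). Nodules exceeded inflamed livers 1.21-fold, by 11546 bp (exact permutation test, p = 0.0397, adjusted p = 0.282). Leaving out single animals gave 8758 to 13524 bp, and the exact permutation p exceeded 0.05 in 7 of these 10 fits, up to 0.103, and was 0.183 with the top 50% of each list. Nodules differed from WT livers by -1735 bp (exact permutation test, p = 0.690, adjusted p = 1). The groups overlapped in all 3 comparisons, against 22.5%, 6.7% and 2.76% of tiles of this length in which they did not.

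Of the 9 merged regions in the 3 windows, 2 had WT and inflamed livers that did not overlap, and both were in the Ppara window with less length in inflamed livers. Among all 44697 regions with a peak in these 2 groups, 3.92% were lower and 12% higher in inflamed livers without overlap. Among the 14948 regions with a peak in all 10 of these animals, as in both Ppara regions, 8.48% were lower and 5.47% higher. No region of the 3 windows was higher in inflamed than in WT livers without overlap. None was called in either direction for HCC against inflamed livers, where 0.898% of all regions were higher and 3.76% lower in nodules, or for HCC against WT livers, where 0.755% were higher and 1.02% lower. By number of unadjusted exact permutation p-values under 0.05, 4 of the 9 regions passed between inflamed and WT livers, 3 between nodules and inflamed livers and 0 between nodules and WT livers. Over all regions the shares were 31.2%, 12.7% and 7.59%. Both Ppara regions stayed called when any 1 of the 10 WT and inflamed animals was left out. The calling rule fixes this outcome, because groups that do not overlap cannot come to overlap when an animal is removed. Without WT 130748, 4 regions were lower in inflamed livers, these 2, the Nr1i3 region and the large Ppara region, and 1 was higher, the one at the far end of the Rxra window, but the shares over the genome rose as well, to 10.9% lower and 15.1% higher. Between nodules and inflamed livers, the Nr1i3 region was called higher in nodules without HCC 124711 or inflamed 148997, where 3.43% and 1.05% of all regions were, and the second Ppara region without HCC 123206, where 1.31% were. The region at the far end of the Rxra window was called lower in nodules without HCC 124711 or inflamed 148990, where 4.19% and 5.82% of all regions were.

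The first of these regions, chr15:85545062-85557629, opened the window. It covered 11825, 11434, 11125, 11423 and 12065 bp in WT animals 134501, 129296, 130747, 129297 and 130748, and 10099, 8319, 10043, 7869 and 10154 bp in inflamed animals 148997, 148998, 149198, 149199 and 148990. Nodules covered 12372 bp in HCC 124711, 10072 bp in 125278, 12101 bp in 125279, 8076 bp in 123206 and 12128 bp in 123390. All WT animals, 130748 included, exceeded all inflamed animals, and nodules took values of either group. The means were 11574 ± 370 bp in WT and 9297 ± 1110 bp in inflamed livers (SD, n = 5 each; exact permutation test, p = 0.00794, adjusted p = 0.0498 over 44697 regions), and 10950 ± 1855 bp in nodules (1653 bp above inflamed livers, exact permutation test, p = 0.143, adjusted p = 0.669).

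The second, chr15:85636990-85644103, lay 92 to 99 kb into the window and had nearly the same length in all inflamed livers. It covered 6055, 6913, 6113, 6347 and 5943 bp in the WT animals in the same order, and 3064, 3094, 3036, 3089 and 3078 bp in the inflamed animals. Nodules covered 6121 bp in HCC 124711, 5448 bp in 125278, 6149 bp in 125279, 2997 bp in 123206 and 6777 bp in 123390. Thus 4 nodules had nearly the WT length, and HCC 123206 fell among the inflamed ones. The means were 6274 ± 386 bp in WT and 3072 ± 23.3 bp in inflamed livers (SD, n = 5 each; difference of -3202 bp, exact permutation test, p = 0.00794, adjusted p = 0.0498), and 5498 ± 1475 bp in nodules (2426 bp above inflamed livers, exact permutation test, p = 0.0476, adjusted p = 0.374).

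This region was made of 2 adjoining elements. The distal one, at about 95 to 98 kb, carried a peak in all 15 animals. The proximal one, at 92.7 to 95.1 kb (chr15:85637671-85640148, 2478 bp), lay under peaks in all 5 WT livers and no inflamed liver. Among nodules it was covered whole in HCC 124711, 125279 and 123390, to 80.8% in HCC 125278 and not at all in HCC 123206. Where it was called as a peak of its own, its scores stood at percentile 36.2 in WT 129297, 45.3 in WT 130748 and 30.1 in HCC 125279, in the lower part of each list. It kept its full length in equal lists of 26375 peaks and was lost (0 bp) when each list was cut to its top 50%.

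**Figure D4:**
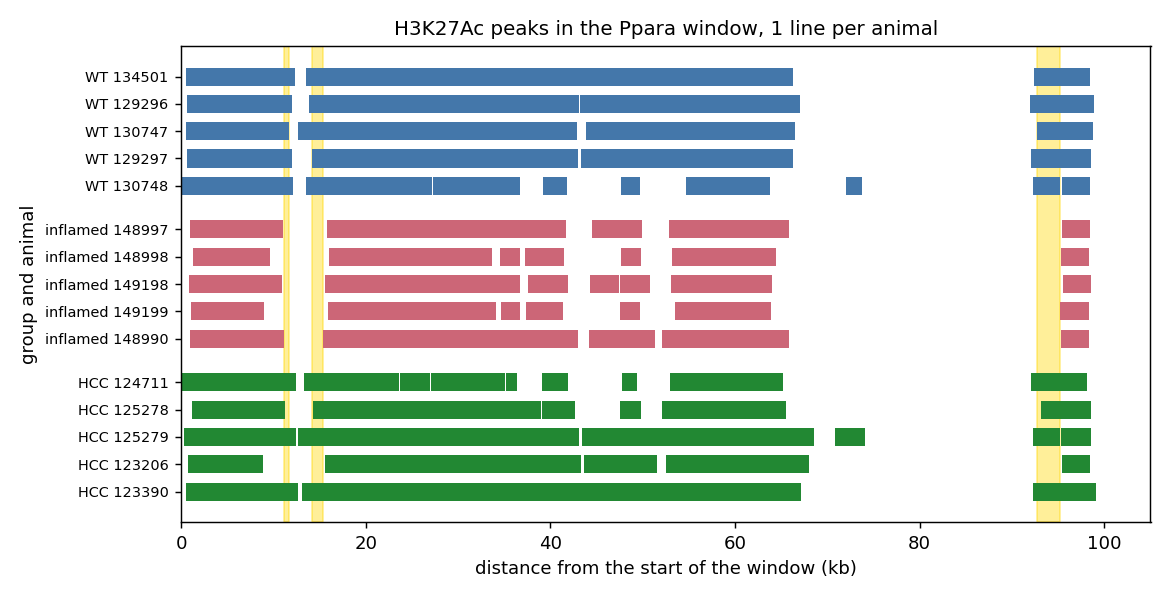
Peaks in the Ppara window, 1 line per animal, against the distance from the window's start (kb), with colours as in the map of the Nr1i3 window. Yellow bands mark the 3 stretches (528, 1248 and 2478 bp) covered in all 5 WT and no inflamed livers; HCC 123206 lacks all 3.

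A gap near the window's start held 2 further stretches of this kind, on either side of a break between long peaks. They were chr15:85556111-85556638 (528 bp) and chr15:85559174-85560421 (1248 bp), so that the break was wider in inflamed livers than in WT livers. HCC 124711, 125279 and 123390 covered both whole, HCC 125278 covered 24.1% and 93.0%, and HCC 123206 covered neither. Both stretches kept their length in equal lists and in the top 50% of each list. This follows from the score of 3100 of the WT peaks over them and adds no separate support. The large region that holds the second of these stretches, chr15:85557651-85613527, covered 49473 ± 7130 bp in WT, 42011 ± 4881 bp in inflamed livers and 48842 ± 6892 bp in nodules (SD, n = 5 each; exact permutation test, p = 0.111 for inflamed against WT, adjusted p = 0.303). WT 130748 had the lowest value of all 15 there, 36746 bp. The remaining small region of the window, chr15:85615880-85619062, had a peak in WT 130748 and HCC 125279 only. Across the window 41952 bp, 53.3% of the length under any peak, were covered in all 15 animals.

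The same contrasts were read in bins of 1000 bp, each called occupied in an animal when at least 500 bp lay under peaks. Of 220 bins occupied in the 3 windows in WT or inflamed animals, 5 were occupied in all 5 WT and no inflamed animals, 1 of 34 at Nr1i3, 4 of 75 at Ppara and 0 of 111 at Rxra, and 0 were occupied in all inflamed and no WT animals. Over the genome 0.945% of bins were lost and 4.37% gained in inflamed livers in this way. Between inflamed livers and nodules 1 of 217 bins was lost, at the far end of the Rxra window (117 kb), and 0 were gained, against 0.983% and 0.208% over the genome. Between WT livers and nodules 0 of 224 bins were lost or gained, against 0.196% and 0.216%. Without WT 130748, 8 bins were lost and 6 gained in inflamed livers, against 2.26% and 6.17% over the genome in the same fit, and without HCC 123206, 4 were gained in nodules over inflamed livers, against 0.327%. The bins lost at Nr1i3 and Ppara with all animals in inflamed livers were each occupied in 3 or 4 of the 5 nodules.

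Inflamed livers had more peaks in all 3 windows, although they covered less of the Nr1i3 and Ppara windows. The Nr1i3 window held 18 peaks in inflamed livers, 12 in WT livers and 13 in nodules, and the Ppara window 31, 25 and 29. The widest peak in the Nr1i3 window averaged 24008 ± 7698 bp in WT, 12214 ± 3758 bp in inflamed livers and 24582 ± 13488 bp in nodules (SD, n = 5 each). In the Rxra window there were 30 peaks in inflamed livers, 15 in WT livers and 24 in nodules. More numerous peaks, and a shorter longest peak, were also a property of the whole inflamed lists, as given above. Median peak lengths overlapped, at 2890 to 3809 bp in WT lists and 2791 to 3197 bp in inflamed lists. The part of the list's own peak lengths in the differences at Nr1i3 and Ppara was not tested. Expressed as bp in the window per Mb of the animal's own covered length, the difference of inflamed minus WT livers was -63.7 at Nr1i3 and -160 at Ppara, in both cases without overlap of the groups (exact permutation tests, p = 0.00794, adjusted p = 0.0339 and 0.0307 over tiles scaled in the same way). Under this scaling 11.6% of tiles of the Nr1i3 window's length and 11.2% of those of the Ppara window's length were lower in inflamed livers without overlap, and the inflamed lists, by which it divides, covered more of the genome on average.

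Some genes of these receptors' pathways were read in the windows in which the study displayed them. At Cyp2c37, a cytochrome P450 gene of the CAR programme, 3 WT livers, 0 inflamed livers and 2 nodules had a peak, with 3644 ± 3346, 0 and 1342 ± 2584 bp covered. At Cyp4a14, a PPARα target that hydroxylates fatty acids, a peak was found in 3, 5 and 4 animals, with 1183 ± 1154, 423 ± 254 and 2217 ± 2020 bp. Covered lengths there were 0 to 2608 bp in WT livers, 29 to 639 bp in inflamed livers and 0 to 5145 bp in nodules. The count of 5 inflamed livers thus includes an animal with only 29 bp. At Abcc4, an export pump for conjugated bile acids, all animals had a peak, with 28484 ± 12124, 22186 ± 2966 and 36193 ± 20791 bp (SD, n = 5 for each group). Values overlapped between groups at Cyp4a14 and Abcc4, and at Cyp2c37 animals without a peak occurred in all 3 groups.

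Regions elsewhere were ranked by how closely their covered length followed a member's over the 15 animals. For Nr1i3 the closest of 32391 regions was chr1:59252454-59276425 (Pearson r = 0.938), for Rxra chr4:154334019-154341483 (r = 0.880 among 32390) and for Ppara chr11:104218597-104223728 (r = 0.915 among 32389). The points share libraries and list lengths and were picked as the highest of many, so the coefficients describe likeness and test nothing. No annotation of this build was used to name the genes there.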

How the data were processed

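H3K27Ac ChIP-seq of liver was analysed in 15 mice, 5 per group, 1 library each. Groups and animal numbers came from the sample labels. An IgG control was not analysed here. Peak calling was done by the authors for each animal separately, and 1 list per animal was deposited, on NCBI37/mm9, with each peak's position and score; the submitters' processing notes name Bowtie 0.12.7 and MACS 1.4. The deposited score was used only to rank peaks within a list. Read counts were not used here, so depth is unknown, and a deeper library may yield more and longer peaks.

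Peaks on chromosomes 1 to 19 and X were read. Covered length per window, per merged region and per tile of a window's length was compared through group means by the exact permutation test (two-sided), and p-values were adjusted by Benjamini-Hochberg over all tiles or regions tested. Regions were called when groups did not overlap. The region calling code was run on covered lengths shuffled among animals, with planted differences large enough to be found by construction. This checks the code and not the calls made here. Alternatives were the top 50% of each list, equal lists of 26375 peaks, windows extended by 10000 bp, share of the animal's covered length, number of peaks, merging within 1000 bp, other calling rules and leaving out each animal. Those for bins and for stretches covered in all of one group were chosen after seeing the data, as were the separate share of regions with a peak in all 10 animals and the scaled tiles. In each window the regions described in full were up to 3 with the smallest unadjusted p in any comparison, and like regions were the closest by Pearson r among those with a peak in at least 5 animals. Members and gene lists were chosen with earlier results of these data known. RefSeq tables (GRCm38.p6) gave gene order and promoter sequences. A genome of the files' build was not used, so motifs were not searched under peaks. Python 3.11.15, NumPy 2.4.6, pandas 2.3.3 and matplotlib 3.10.9 were used.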

Additional observations from a re-analysis of the deposited data

Results flagged for a closer look

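In the Ppara window, WT animal 130748 covered 56458 bp, far below the other 4 WT animals at 69634 to 71463 bp. Its gap to the nearest of them, divided by the range of the group, exceeded Dixon's 95% critical value. Of the 9 groups of 5 animals examined, 3 per window, 1 was flagged, and chance flags about 1 group in 20. The same animal had 9 peaks in the window, against 3 to 5 in the other WT animals, the lowest covered length of its group at Nr1i3 (23663 bp) and the highest at Rxra (109582 bp).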

How the results depend on the processing

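No paired analysis was possible because each animal number occurs in 1 group. Counting peaks in place of covered length turned the direction for Nr1i3 (1.2 more peaks in inflamed than WT livers, -1 for HCC minus inflamed, 0.2 for HCC minus WT) and for Ppara (1.2, -0.4 and 0.8). As bp per Mb of the animal's covered length, inflamed minus WT was -63.7 at Nr1i3 and -160 at Ppara, both without overlap, and Rxra turned to -68.8, 52.3 (HCC minus inflamed) and -16.5 (HCC minus WT). At Rxra, equal lists gave -16878, 8065 and -8813 bp in the same order, and the top 50% gave 3372 bp for HCC minus inflamed. Windows extended by 10000 bp gave -14710 bp (inflamed minus WT) and 13969 bp (HCC minus inflamed) at Ppara, both without overlap, and 1571 bp for HCC minus WT at Nr1i3. For these turns of direction the cause was not tested.

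Leaving out each animal in turn, Nr1i3 ranged from -6512 to -4020 bp (inflamed minus WT), from 2721 to 5356 bp (HCC minus inflamed) and from -2467 to 402.6 bp (HCC minus WT). Rxra ranged from -6181 to 11445, from -8282 to 7664 and from -7426 to 10200 bp. Ppara ranged from -16083 to -11665, from 8758 to 13524 and from -4536 to 242 bp. Groups separated at Nr1i3 and Ppara without WT 130748, and at Ppara for HCC minus inflamed without inflamed 148990 (13387 bp).

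The 2 regions called for inflamed against WT became 1 with the top 50% and with merging within 1000 bp, 0 when a peak in all 5 of one group and none of the other was required, and 2 to 5 when animals were left out, 5 being without WT 130748. Leaving out an animal could only keep or raise the counts of regions and bins, because a separation of groups is never undone by it. For HCC against inflamed, 0 became 1 with equal lists and 0 to 2 with animals left out: 2 without HCC 124711 and 1 without HCC 123206, inflamed 148997 or inflamed 148990. Bins lost in inflamed livers went from 5 to 3 with the top 50% and from 5 to 8 with animals left out, and gained bins from 0 to 6, both maxima without WT 130748. For HCC against inflamed, gained bins went from 0 to 4, the maximum without HCC 123206, and the 1 lost bin became 0 with the top 50%. Shares over the genome under the top 50%, equal lists, merging within 1000 bp and other calling rules are not given here. Counts under these settings can thus not be read as particular to the 3 windows. Unadjusted exact permutation p-values crossed 0.05 with the top 50% for inflamed minus WT at Nr1i3 (p = 0.103) and Ppara (p = 0.0952) and HCC minus inflamed at Ppara (p = 0.183), with equal lists for inflamed minus WT at Nr1i3 (p = 0.0556), with the extended window for HCC minus inflamed at Nr1i3 (p = 0.0159) and with numbers of peaks for inflamed minus WT at Rxra (p = 0.0238). The other alternatives kept the direction, and the groups overlapped as before. The unknown depth and tied high scores limit what covered length can show.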
